A study of Mus musculus with 12 samples.

Results

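The solute carriers described here are mouse genes with an Slc symbol, selected on their measured level: a mean of at least 1 count per 1000000 counts (CPM) over 12 RNA-sequencing libraries of HoxB8 cells. Of 24411 gene symbols with counts, 373 were Slc genes, and 199 of these met the minimum. The other 174 comprised 78 with no counts in any library and 96 with counts under the minimum. The members just inside it were Slc26a9 at 1.016, Slc22a20 at 1.043, Slc30a2 at 1.071 and Slc13a2 at 1.21 CPM. The genes just outside it were Slc28a3 at 0.959, Slc35g2 at 0.913, Slc36a3 at 0.887 and Slc36a2 at 0.848 CPM. Since the minimum was set on measured values, 9 members passed it only through their highest group, and counts over the members are descriptions.

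HoxB8 cells are bone marrow progenitors of the mouse that are held in an immature state by an estrogen-dependent Hoxb8 protein. Every population carried a pair of vectors, pMIG and pMICH. Empty/Empty cells had both vectors without insert. Empty/T618I cells had CSF3R-T618I in pMICH, a mutant of the G-CSF receptor, which drives neutrophil formation. Asxl1-MT2/Empty cells had Asxl1-MT2 in pMIG, a truncated form of the chromatin regulator Asxl1. Asxl1-MT2/T618I cells had both inserts. Each group had 3 libraries, and all 4 groups shared the HoxB8 line, both vectors, medium conditioned with stem cell factor, and 24 h without estrogen before RNA was taken. The labels do not say whether the 3 libraries of a group are separate cultures, or whether the line is 1 clone. All p-values therefore rest on library-to-library spread, which may be technical.

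Solute carriers are membrane proteins that move small molecules across the plasma membrane or the membranes of organelles, either down a gradient, together with an ion, or in exchange for another solute. The family numbers follow sequence kinship, so carriers of one substrate are spread over several families. In blood progenitors, amino acid and glucose carriers feed growth, iron and zinc carriers set the supply of metal cofactors, and mature neutrophils and macrophages place metal and peptide carriers in the membranes of phagosomes and lysosomes. The 199 members were put into 12 groups by substrate. These were 39 mitochondrial carriers of the Slc25 family, 27 carriers of metals and heme, 26 of protons, bicarbonate and other inorganic ions, 25 of amino acids, 22 of nucleotide sugars and acetyl-CoA, 14 of sugars and polyols, 12 of lipids, bile acids and organic ions, 10 of vitamins and choline, 8 of peptides or vesicle and lysosome contents, 6 of carboxylates and 5 of nucleosides and nucleobases. The last 5 have an Slc symbol without being carriers, such as the scaffold protein gene Slc9a3r1.

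Library totals lay between 9341984 and 10252291 counts. Members took 1.07% to 1.15% of the counts in Empty/Empty libraries, 1.31% to 1.32% in Empty/T618I, 1.08% to 1.09% in Asxl1-MT2/Empty and 1.20% to 1.22% in Asxl1-MT2/T618I. The library with the title Empty/Empty 3 has a genotype label that names the T618I vector instead, and the deposited columns carry letters that are not tied to the numbers of the titles. Groups were taken from the titles. Socs3, a feedback target of receptor signalling, lay between 11.9 and 13.8 CPM in all 3 Empty/Empty libraries and between 151 and 176 CPM in the Empty/T618I libraries. Asxl1 was at 919 to 1833 CPM in the 6 Asxl1-MT2 libraries and at 116 to 167 CPM in the other 6. Csf3r was at 232 to 337 CPM in Empty/Empty, 386 to 456 in Empty/T618I, 253 to 320 in Asxl1-MT2/Empty and 967 to 1688 in Asxl1-MT2/T618I. Hoxb8 was at 626 to 705, 242 to 332, 646 to 769 and 559 to 586 CPM in the same order. The part of its lower level in Empty/T618I in these results was not tested. It is not given whether reads of the inserts were counted to the mouse genes. Marker lists also differed between groups. Summed over 11 mast cell and basophil markers, levels were 1093 to 1279 CPM in Empty/Empty, 3484 to 6644 in Empty/T618I, 677 to 723 in Asxl1-MT2/Empty and 3623 to 4023 in Asxl1-MT2/T618I, and Fcer1a was at 0 in Empty/Empty. Summed over 7 mature neutrophil markers, they were 631 to 956, 2467 to 3204, 745 to 1005 and 11921 to 19318 CPM in the same order. Summed over 7 neutrophil precursor markers, levels were 32862 to 41714, 15359 to 18282, 37094 to 41923 and 17763 to 22547 CPM, with 5 of 7 called lower with T618I alone. Mpo made up most of these sums, at 29732 CPM in Empty/Empty and 10741 CPM in Asxl1-MT2/T618I on average. The list did not move as one. When Asxl1-MT2 was added to T618I, 3 of the 7 were called higher and 0 lower. Ngp went from 392 to 3799, Ltf from 97.7 to 1002 and Camp from 4.07 to 28.1 CPM. The summed erythroid markers stayed at or under 16.9 CPM, with Hba-a1 and Hbb-bs at 0 in all groups. In these bulk libraries, a change in the share of a cell type and a change in RNA per cell cannot be told apart.

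Most members were expressed in all groups. Of the 199, 181 had a mean of at least 1 CPM in each of the 4 groups and 18 did not. The median member had 25.3 CPM, 31 members had 100 CPM or more and 39 had under 5 CPM. Compared per kilobase of exon, the most abundant member was Slc25a5, the ADP/ATP carrier of the inner mitochondrial membrane, at 393 CPM per kilobase over the 12 libraries. Slc7a5, an exchanger of large neutral amino acids, followed at 155, Slc48a1, a heme carrier, at 118, and Slc7a5's partner chain Slc3a2 at 77.7 CPM per kilobase. A T618I group had the highest mean for most members, Asxl1-MT2/T618I for 71 and Empty/T618I for 59. Empty/Empty was the highest group of 27 members and Asxl1-MT2/Empty of 42. The T618I groups were often the lowest as well, Asxl1-MT2/T618I for 55 members and Empty/T618I for 54. Asxl1-MT2/Empty was the lowest group of 57 members and Empty/Empty of 33. These counts were not made over all genes.

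Compared with Empty/Empty, T618I alone was followed by higher levels of 49 members and lower levels of 42, that is, 45.7% of the members at an adjusted p under 0.05. Over all 11578 genes tested, 33.5% were called in this comparison, 17.6% higher and 15.9% lower. The median log2 fold change was 0.04 over the members and 0.00 over all genes. Asxl1-MT2 without T618I was followed by 2 higher and 3 lower members (2.51% of the members), beside 1.86% of all genes, 1.24% higher and 0.622% lower. Added to T618I, the same insert was followed by 60 higher and 42 lower members (51.3%), beside 43.9% of all genes, 25.4% higher and 18.5% lower. The split into higher and lower members of that comparison depended on the scaling. With library totals in place of the TMM factors, whose smallest values belonged to the Asxl1-MT2/T618I group, the median of all genes shifted by -0.126 on the log2 scale and the members split into 51 higher and 65 lower.

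**Figure D1:**
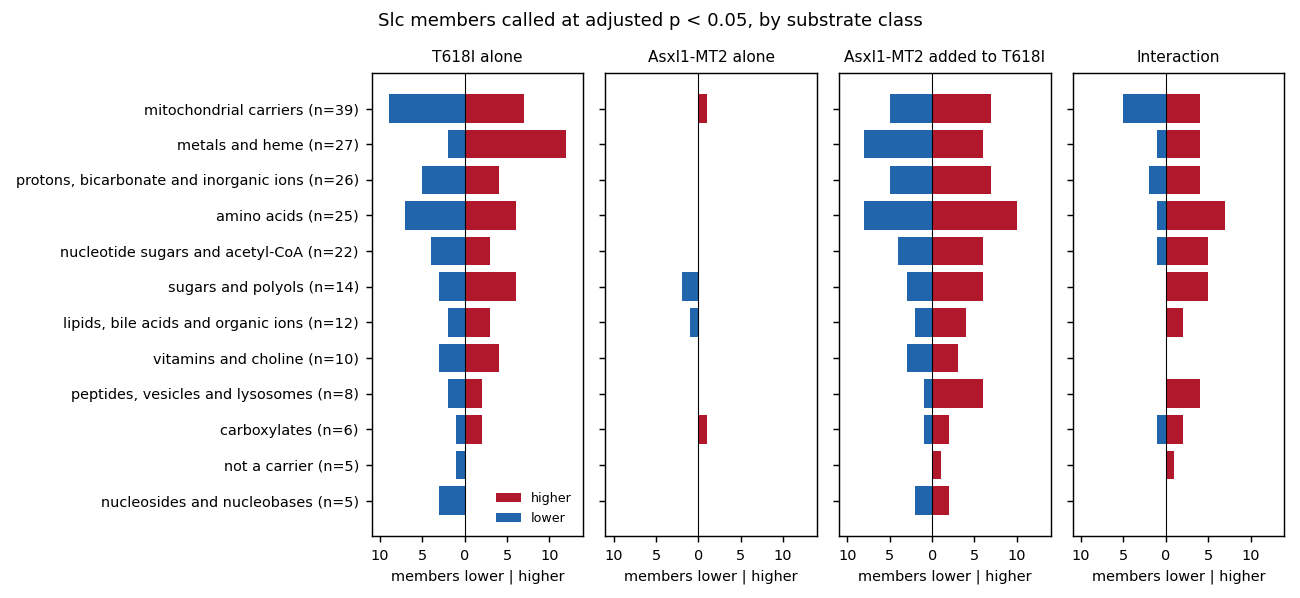
Number of members called at an adjusted p under 0.05 in each substrate class, with higher members to the right (red) and lower members to the left (blue), for T618I alone, Asxl1-MT2 alone, Asxl1-MT2 added to T618I, and the interaction between the inserts. Metal and heme carriers had 12 higher and 2 lower members with T618I alone, while the amino acid carriers went both ways, with 6 higher and 7 lower. Over all genes 17.6% were higher and 15.9% lower in this comparison.

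Amino acid carriers went both ways with T618I. Of 25, 6 rose and 7 fell, beside 17.6% and 15.9% of all genes. A mean above 100 CPM in Empty/T618I was reached by 5 of the 6 that rose, while the 7 that fell stayed under it in both groups. Slc7a5 (chromosome 8, 121881150 to 121907694, minus strand; all coordinates are GRCm38 positions of GENCODE M21) had 344, 339 and 280.1 CPM in the Empty/Empty libraries and 1005, 979 and 1083 CPM in the Empty/T618I libraries. The groups lay far apart, with a log2 fold change of 1.67 ± 0.090 (SE, adjusted p = 3.54e-10). Slc3a2 (chromosome 19, 8706882 to 8723369, minus strand), the single-pass heavy chain that carries Slc7a5, Slc7a8 and Slc7a11 to the membrane, rose by 1.27 ± 0.085 on the same scale (adjusted p = 4.26e-09). Its level went from 178 ± 5.19 to 431 ± 55.2 CPM (mean ± SD, n = 3 here and below). Slc7a8, a second exchanger of neutral amino acids, rose by 1.83 ± 0.15 (adjusted p = 5.63e-08). Its libraries had 131, 121 and 103 CPM in Empty/Empty and 441, 315 and 510.2 CPM in Empty/T618I, where library B was the lowest. Slc7a11, which takes up cystine in exchange for glutamate and so feeds glutathione synthesis, went from 30.9, 41.2 and 38.3 CPM to 108, 139 and 125 CPM, a log2 fold change of 1.75 ± 0.15 (adjusted p = 1.05e-07). The glycine carrier Slc6a9 rose from 3.50 ± 1.24 to 23.8 ± 5.78 CPM (2.76 ± 0.22, adjusted p = 2.87e-08). However, 30.2% of its exon bases are shared with genes on the other strand, Ccdc24 among them, and since the strand setting of the counting was not given its reads cannot be assigned with certainty.

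The amino acid carriers that fell furthest with T618I were low already. Slc6a12, a carrier of betaine and GABA, had 4.53, 5.27 and 4.23 CPM in Empty/Empty and 0.481, 0.0954 and 0.209 CPM in Empty/T618I, a log2 fold change of -4.09 ± 0.42 (adjusted p = 6.53e-07). Slc6a13, a carrier of GABA and taurine, had 10.9, 7.16 and 10.01 CPM and 0.769, 0.668 and 1.36 CPM in the same groups (-3.32 ± 0.29, adjusted p = 1.01e-07). These genes lie next to each other in one orientation, Slc6a13 at chromosome 6, 121300227 to 121337733, plus strand and Slc6a12 at chromosome 6, 121343076 to 121365775, plus strand, with 5343 bases between them. Slc7a7, an exchanger of cationic for neutral amino acids (chromosome 14, 54369442 to 54417780, minus strand), fell from 6.24, 7.26 and 4.85 to 2.60, 2.29 and 1.98 CPM (-1.41 ± 0.21, adjusted p = 3.8e-05). Slc43a1, another neutral amino acid carrier, fell from 19.3 ± 2.64 to 11.6 ± 1.62 CPM (-0.74 ± 0.14, adjusted p = 0.000657).

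Several amino acid carriers are known targets of the stress factor ATF4. Of a list of 10 carriers linked to it, 9 were members. With T618I alone, 4 rose (Slc7a11, Slc7a5, Slc3a2 and Slc6a9), 1 fell (Slc43a1) and 4 were not called, with a median log2 fold change of 0.68. Over all genes 17.6% rose and 15.9% fell. The 4 not called were abundant glutamine and arginine carriers and a low one. Slc38a2 had a log2 fold change of 0.02 ± 0.096 (adjusted p = 0.873), Slc1a5 of 0.14 ± 0.11 (adjusted p = 0.333) and Slc7a1 of 0.15 ± 0.086 (adjusted p = 0.197). Slc1a4, a carrier of alanine, serine and cysteine, was at 5.06 ± 0.333 CPM in Empty/Empty and 8.10 ± 1.60 CPM in Empty/T618I (0.68 ± 0.28, adjusted p = 0.0762).

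The promoters of 4 members are shown because they set sequence beside unlike responses. They run from 250 bases before to 50 after the RefSeq start (GRCm38.p6), 5′ to 3′ on the gene's strand. Capitals mark the core of the ATF4 amino acid response element, TGATGNAA, and the STAT-like match TTCNNNGAA, both searched on either strand. Slc7a11 rose with T618I, Slc7a7 fell with T618I alone, Slc1a4 was not called, and Slc11a1 had the largest interaction between the inserts.
Slc7a11 (chr3:50443564-50443863, minus strand): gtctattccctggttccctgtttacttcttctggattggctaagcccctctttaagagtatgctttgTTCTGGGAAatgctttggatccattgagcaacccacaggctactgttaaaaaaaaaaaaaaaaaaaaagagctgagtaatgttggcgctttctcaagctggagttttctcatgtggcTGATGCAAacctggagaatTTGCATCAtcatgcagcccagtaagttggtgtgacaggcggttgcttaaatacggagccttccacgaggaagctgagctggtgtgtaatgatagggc
Slc7a7 (chr14:54417895-54418194, minus strand): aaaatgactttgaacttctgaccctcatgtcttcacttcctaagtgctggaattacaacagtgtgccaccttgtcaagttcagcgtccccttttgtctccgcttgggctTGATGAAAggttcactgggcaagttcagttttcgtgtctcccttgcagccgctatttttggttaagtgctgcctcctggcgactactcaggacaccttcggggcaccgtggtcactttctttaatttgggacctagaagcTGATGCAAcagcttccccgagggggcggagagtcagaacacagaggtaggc
Slc1a4 (chr11:20332664-20332963, minus strand): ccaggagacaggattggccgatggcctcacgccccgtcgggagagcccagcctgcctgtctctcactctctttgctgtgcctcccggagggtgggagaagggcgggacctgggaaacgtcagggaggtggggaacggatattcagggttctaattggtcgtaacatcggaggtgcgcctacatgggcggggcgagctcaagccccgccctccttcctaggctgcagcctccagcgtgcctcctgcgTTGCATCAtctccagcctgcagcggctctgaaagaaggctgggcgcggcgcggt
Slc11a1 (chr1:74374953-74375252, plus strand): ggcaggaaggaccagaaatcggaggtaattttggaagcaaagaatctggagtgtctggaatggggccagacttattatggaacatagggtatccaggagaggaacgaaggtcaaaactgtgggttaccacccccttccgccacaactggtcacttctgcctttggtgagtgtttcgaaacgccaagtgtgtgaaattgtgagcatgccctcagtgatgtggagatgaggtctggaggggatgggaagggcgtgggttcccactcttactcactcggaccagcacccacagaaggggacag
The Slc7a11 window held a pair of facing ATF4 cores, at -66 on the gene's strand and at -47 on the other, and 1 STAT-like match at -183. The Slc7a7 window shown held 2 cores, at -141 and -1. It is the one with the most cores among 5 RefSeq windows of this gene. Another, which overlaps it, held 1 core, at -243 from its own start. This is the same site as the core at -1 of the window shown. The other 3 held neither motif. In Slc1a4 1 core lay at -4 on the other strand, and the Slc11a1 window held no match to either motif. Promoters were found for 154 of the 199 members. Of their 210 windows 3.33% held the ATF4 core, beside 3.97% of all 32851 promoter windows. For the STAT-like letters the shares were 4.76% and 8.3%, for the metal response letters TGCGCNC 22.4% and 15.4%, and for the E-box CACGTG 13.3% and 7.15%. Among the members shown, which were chosen for unlike responses, the same ATF4 letters stood beside a rise, a fall and no call. Only 6 of the 154 members held this core, and Slc6a9, which rose, was searched and held none. These cases do not say whether letters and response go together. A match is a description of letters and shows no binding.

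Glucose and lactate carriers were mostly higher with T618I. Of a list of 5, 4 rose with T618I alone and 1 was not called, while 17.6% of all genes rose and 15.9% fell. Slc2a1, the widely expressed glucose carrier (chromosome 4, 119108711 to 119137983, plus strand), had 76.1, 66.1 and 65.4 CPM in Empty/Empty and 135, 148 and 136 CPM in Empty/T618I (1.01 ± 0.12, adjusted p = 4.42e-06). Slc2a3, a glucose carrier of high affinity (chromosome 6, 122727809 to 122801640, minus strand), had 34.7, 27.3 and 28.6 CPM and 99.5, 87.3 and 102 CPM (1.67 ± 0.13, adjusted p = 3.07e-08). Slc2a6, a hexose carrier of lysosomes, rose from 8.95 ± 0.551 to 29.4 ± 3.67 CPM (1.71 ± 0.24, adjusted p = 2.97e-05). None of these groups overlapped, which held for all 91 members called in this comparison. The lactate carrier Slc16a1 rose less, by 0.41 ± 0.093 (adjusted p = 0.00222), and Slc16a3, which exports lactate from glycolytic cells, had a log2 fold change of 0.21 ± 0.11 (adjusted p = 0.163). In the wider class of 14 sugar carriers 6 rose and 3 fell. Those that fell included Slc2a9, a urate carrier with the fold of a glucose carrier, at 10.4 ± 1.88 CPM in Empty/Empty and 4.78 ± 0.774 CPM in Empty/T618I (-1.11 ± 0.18, adjusted p = 8.66e-05), and Slc2a8, at -0.94 ± 0.17 (adjusted p = 0.000384).

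**Figure D2:**
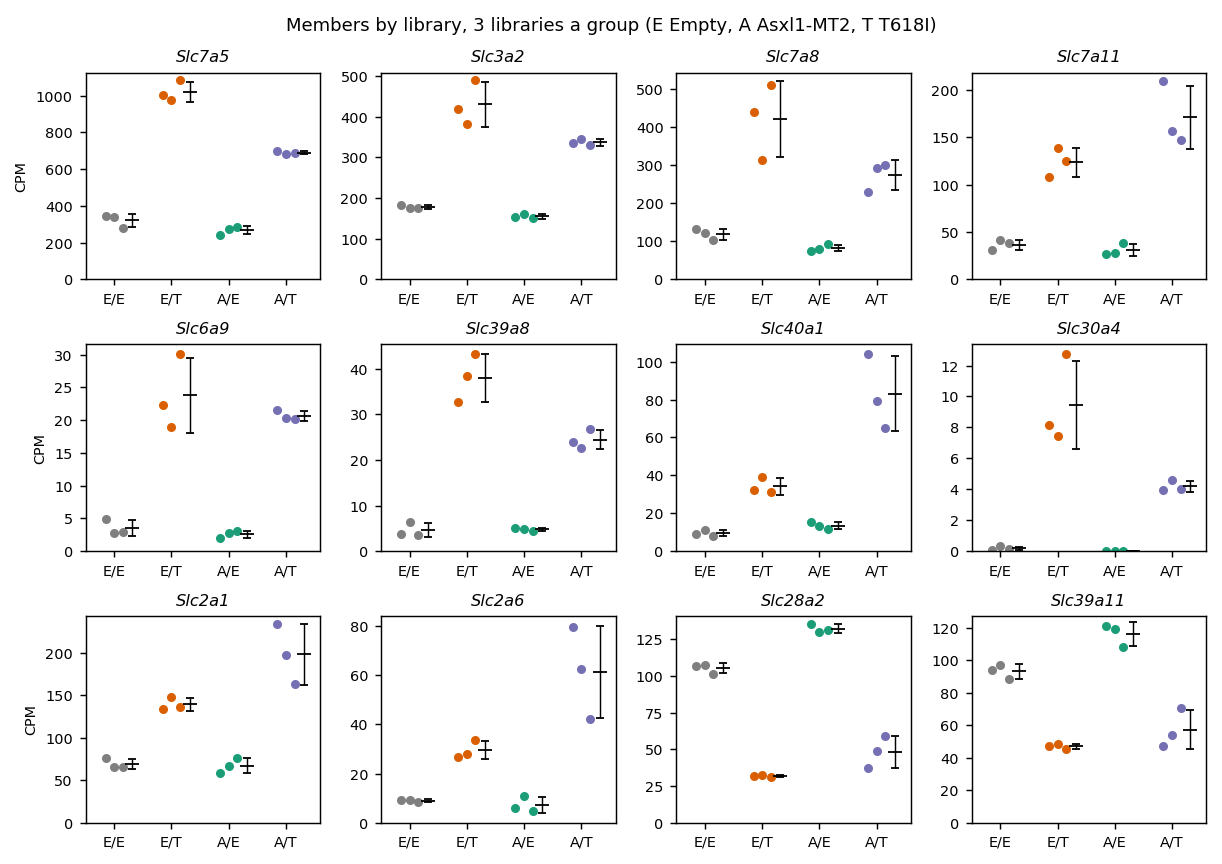
Levels (CPM, linear axis from 0) of 12 members in each of the 12 libraries, with the mean and SD of 3 libraries as a bar beside the points of each group (E/E Empty/Empty, E/T Empty/T618I, A/E Asxl1-MT2/Empty, A/T Asxl1-MT2/T618I). Slc28a2 and Slc39a11 lie lower in both T618I groups and the other 10 lie higher in both.

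Of 27 carriers of metals and heme 12 were higher and 2 lower with T618I alone, beside 17.6% and 15.9% of all genes. Several of them bring zinc into the cytosol. Slc39a8, which takes up zinc, manganese and iron (chromosome 3, 135825279 to 135888572, plus strand), had 3.73, 6.36 and 3.61 CPM in Empty/Empty and 32.7, 38.4 and 43.2 CPM in Empty/T618I (3.05 ± 0.18, adjusted p = 7.76e-10). Slc39a14, its close relative, rose from 12.7 ± 0.457 to 27.7 ± 2.41 CPM (1.12 ± 0.11, adjusted p = 5.56e-07). Slc39a11, a zinc carrier of inner membranes, went the other way, from 94.1, 97.1 and 88.2 CPM to 47.2, 48.2 and 45.4 CPM (-0.99 ± 0.11, adjusted p = 2.84e-06). Of the 12 members of the Slc39 family 5 rose and 1 fell. Among these 5, Slc39a4 (1.10) missed the threshold in 11 of 18 alternatives, with adjusted p from 0.0317 to 0.13. Of the 7 members of the Slc30 family, which move zinc out of the cytosol, 2 rose and 1 fell. Slc30a4 rose from 0.101, 0.298 and 0.103 CPM to 8.17, 7.44 and 12.7 CPM (5.70 ± 0.41, adjusted p = 3.63e-08).

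Iron carriers also moved. Slc40a1, ferroportin, the exporter of iron from cells (chromosome 1, 45908068 to 45926523, minus strand), had 9.26, 10.9 and 7.84 CPM in Empty/Empty and 32.2, 39.1 and 31.1 CPM in Empty/T618I (1.87 ± 0.18, adjusted p = 3.38e-07). The proton-coupled iron importer Slc11a2 rose from 27.7 ± 4.57 to 39.8 ± 0.826 CPM (0.52 ± 0.11, adjusted p = 0.00158). Slc11a1, which pumps divalent metals out of phagosomes (chromosome 1, 74375195 to 74386062, plus strand), was at 0.403, 0.298 and 0.722 CPM and 5.29, 3.15 and 3.13 CPM (3.002 ± 0.44, adjusted p = 4.15e-05). The mitochondrial iron importer Slc25a37 fell from 209 ± 35.9 to 137 ± 13 CPM (-0.60 ± 0.12, adjusted p = 0.000546). Slc48a1, the abundant heme carrier, was not called (-0.25 ± 0.10, adjusted p = 0.0662).

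**Figure D3:**
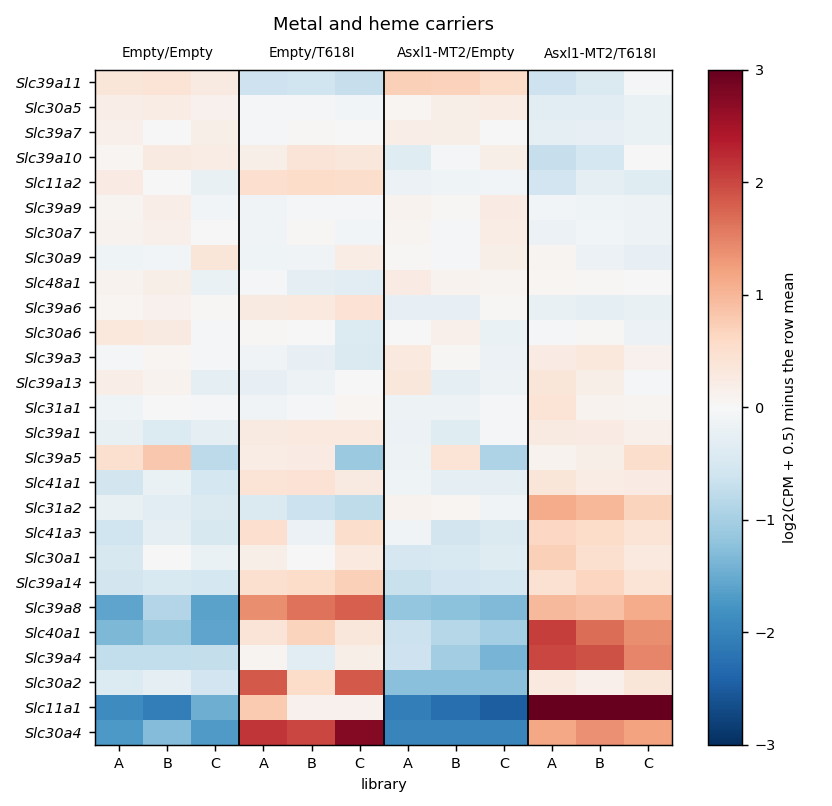
Levels of the 27 metal and heme carriers in the 12 libraries as log2(CPM + 0.5) minus the mean of each row, with colours cut at 3 in either direction and rows ordered by the log2 fold change of T618I added to Asxl1-MT2. Slc39a8, Slc40a1 and Slc30a4 are high in both T618I groups, and Slc11a1 is highest in the 3 Asxl1-MT2/T618I libraries.

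The single Slc18 member and 3 of the 7 members of the Slc22 family of organic ion carriers rose with T618I, while 1 Slc22 member, Slc22a4, fell (-0.37 ± 0.12, adjusted p = 0.0206) and 3 were not called. Over all genes 17.6% rose and 15.9% fell. Slc22a4, a carrier of ergothioneine and organic cations, was named after its values were seen, and its fall missed the threshold without library B of Empty/Empty, without library B or C of Empty/T618I and without the letter C libraries (highest adjusted p = 0.137). Slc18a2, which loads monoamines such as histamine into vesicles, had 24.5, 25.8 and 30.1 CPM in Empty/Empty and 102, 62.8 and 125 CPM in Empty/T618I (1.85 ± 0.19, adjusted p = 5.7e-07). Slc22a3, a carrier of organic cations, had 22.2, 19.9 and 24.3 CPM and 65.5, 57.6 and 84.5 CPM (1.64 ± 0.18, adjusted p = 1.16e-06). Slc45a3, of the proton-coupled sugar carrier family, had 16.7, 16.5 and 16.2 CPM and 80.7, 54.1 and 93.7 CPM (2.21 ± 0.18, adjusted p = 3.78e-08). In all 3, library B was the lowest of the Empty/T618I libraries. Slc22a23, a relative of Slc22a3 without a known substrate, had 4.63, 6.96 and 4.64 CPM and 18.8, 16.8 and 27.5 CPM (1.95 ± 0.20, adjusted p = 7.2e-07). All 11 mast cell and basophil markers rose in the same comparison, with a median log2 fold change of 3.59. Their part in these results was not tested.

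Carriers of nucleosides and vitamins included further falls. The summed neutrophil precursor markers fell as well, to 15359 to 18282 CPM in Empty/T618I from 32862 to 41714 CPM in Empty/Empty, and their part in these results was not tested. Slc28a2, which takes up purine nucleosides with sodium (chromosome 2, 122426477 to 122461137, plus strand), had 107, 108 and 101 CPM in Empty/Empty and 31.7, 32.8 and 31.1 CPM in Empty/T618I (-1.72 ± 0.12, adjusted p = 5.55e-09). Of the 5 members of its class 3 fell, the others being Slc43a3, a nucleobase carrier (-0.44 ± 0.086, adjusted p = 0.000656), and Slc29a3, a nucleoside carrier of lysosomes (-0.54 ± 0.13, adjusted p = 0.00277). Among 10 carriers of vitamins and choline 4 rose and 3 fell. For both classes the shares of all genes were 17.6% higher and 15.9% lower. The proton-coupled folate carrier Slc46a1 fell from 5.55 ± 0.632 to 2.28 ± 0.540 CPM (-1.27 ± 0.28, adjusted p = 0.00183). Slc44a4, a carrier of choline and thiamine pyrophosphate, fell from 4.83, 5.86 and 4.95 CPM to 2.79, 2.58 and 1.46 CPM (-1.18 ± 0.24, adjusted p = 0.000911). Slc44a2, another carrier of choline, rose from 153 ± 18.3 to 281 ± 1.25 CPM (0.88 ± 0.090, adjusted p = 6.46e-07). Slc52a3, a riboflavin carrier (chromosome 2, 151996511 to 152009258, plus strand), had 153 counts over the 3 Empty/T618I libraries and 2 over those of Empty/Empty. The ratio of 74.5 had an exact 95% interval of 20.3 to 621, which covers counting error only.

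Among 39 mitochondrial carriers 7 rose and 9 fell with T618I alone, most by less than 2-fold. Over all genes 17.6% rose and 15.9% fell, so the rises in this class were near that share. Slc25a23, which exchanges ATP-magnesium for phosphate under control of calcium, rose from 20.5, 17.00 and 15.9 CPM to 46.2, 41.2 and 47.6 CPM (1.34 ± 0.12, adjusted p = 1.12e-07). Slc25a33, a carrier of pyrimidine nucleotides, rose by 0.996 ± 0.18 (adjusted p = 0.000323). Slc25a13, the aspartate and glutamate carrier of the malate-aspartate shuttle, fell by 0.47 ± 0.096 (adjusted p = 0.000981). The phosphate carrier Slc25a3, at 426 ± 47.1 CPM in Empty/Empty, was not called (0.03 ± 0.092, adjusted p = 0.854). In the Golgi and endoplasmic reticulum, 3 of 22 carriers of nucleotide sugars and acetyl-CoA rose and 4 fell. That is 31.8% called, near the 33.5% of all genes. Slc35d1, which brings UDP-glucuronic acid and UDP-N-acetylgalactosamine into the endoplasmic reticulum, had 12.4, 15.01 and 14.7 CPM in Empty/Empty and 74.5, 58.4 and 103 CPM in Empty/T618I (2.48 ± 0.18, adjusted p = 1.5e-08). The orphan carrier Slc35d3 was at 0.805, 0.398 and 0.413 CPM and 2.499, 5.15 and 3.13 CPM (2.71 ± 0.39, adjusted p = 2.78e-05). Both groups lay apart for each gene, as for all 91 members called in this comparison. Slc35e3, whose substrate is not known, fell from 16.8 ± 0.577 to 8.27 ± 1.25 CPM (-1.02 ± 0.15, adjusted p = 4.02e-05). Slc35b4, a carrier of UDP-xylose, fell from 99.5 ± 12.2 to 53.02 ± 8.15 CPM (-0.91 ± 0.11, adjusted p = 5.33e-06). Of 26 carriers of inorganic ions 4 rose and 5 fell, 34.6% in all and again near the share of all genes. Slc12a2, the sodium-potassium-chloride importer, rose (1.77 ± 0.21, adjusted p = 4.3e-06), and the phosphate carrier Slc20a2 fell (-0.57 ± 0.093, adjusted p = 0.000118). Slc8b1, the sodium-calcium exchanger of mitochondria, fell from 117, 130.4 and 98.8 CPM to 76.9, 78.4 and 60.7 CPM (-0.68 ± 0.13, adjusted p = 0.00044). The dicarboxylate carrier Slc13a2, named after its values were seen, fell from 63 counts over the 3 Empty/Empty libraries to 1 count with T618I, a ratio of 64.7 with an exact 95% interval of 11.2 to 2594. However, 26.2% of its exon bases are shared with an antisense gene.

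Asxl1-MT2 without T618I was followed by few changes among the carriers, and the members called were Slc2a3, Slc45a3, Slc22a3, Slc25a23 and Slc16a3. Slc2a3 had 34.7, 27.3 and 28.6 CPM in Empty/Empty and 11.6, 16.6 and 14.2 CPM in Asxl1-MT2/Empty (-1.10 ± 0.15, adjusted p = 0.000856). Its groups did not overlap, as for all 5 members called. The call of Slc2a3 held in every alternative run. Slc45a3 (-1.07 ± 0.21, adjusted p = 0.0133) and Slc22a3 (-0.92 ± 0.20, adjusted p = 0.024) were lower as well. The summed mast cell and basophil markers were at 677 to 723 CPM in Asxl1-MT2/Empty against 1093 to 1279 CPM in Empty/Empty. Most of that difference lay in Cpa3 (571 to 269 CPM) and Hdc (411 to 289 CPM). Of the 11 markers 4 were called lower and 0 higher, beside 0.622% and 1.24% of all genes. Mcpt8 was not called (0.05 ± 0.18, adjusted p = 0.984). The part of these cells was not tested. Slc25a23 was higher, at 30.7, 27.6 and 26.2 CPM in Asxl1-MT2/Empty (0.66 ± 0.12, adjusted p = 0.00751), and so was Slc16a3, at 77.7, 84.5 and 81.04 CPM (0.47 ± 0.11, adjusted p = 0.0407). Each of these 4 calls was lost in at least 1 run with a single library left out, though the fold changes kept their sign. Such a run also has fewer libraries, so a lost call does not single out the library left out. The call of Slc45a3 was lost without Asxl1-MT2/Empty library A (adjusted p = 0.0808) or C (0.0683), that of Slc25a23 without library A of Asxl1-MT2/Empty (0.0574) or library B of Empty/Empty (0.0508). That of Slc22a3 was lost without Empty/Empty library A (0.0752) or C (0.089) and without Asxl1-MT2/Empty library A (0.142) or B (0.0894), and that of Slc16a3 without any 1 of the 6 libraries compared, without Asxl1-MT2/T618I library B and without the libraries of letter C, with adjusted p from 0.00524 to 0.185 over all alternatives. Over all alternatives the adjusted p ran from 5.27e-05 to 0.0808 for Slc45a3, from 0.000197 to 0.0574 for Slc25a23 and from 0.000212 to 0.142 for Slc22a3.

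In cells with T618I, Asxl1-MT2 was followed by higher levels of the carriers on a list named for endosomes and lysosomes. The 7 members of this list of 8 were called higher, with a median log2 fold change of 0.58, beside 25.4% of all genes called higher and a median of 0.01. With T618I alone 1 of the 7 was higher and 2 were lower, beside 17.6% and 15.9% of all genes. Slc37a2 and Slc15a3 lay near the member minimum of 1 CPM in Empty/T618I. A low member can meet the minimum through its high level in Asxl1-MT2/T618I, so the count of 7 is a description. The list holds Slc37a2, which is placed in the endoplasmic reticulum. Slc11a1 had 5.29, 3.15 and 3.13 CPM in Empty/T618I and 55.4, 49.4 and 30.99 CPM in Asxl1-MT2/T618I (3.54 ± 0.23, adjusted p = 6.27e-09). Slc37a2, a sugar phosphate exchanger (chromosome 9, 37227585 to 37255738, minus strand), had 1.25, 0.668 and 1.36 CPM and 13.7, 9.71 and 8.57 CPM (3.28 ± 0.28, adjusted p = 8.02e-08). The lysosomal peptide and histidine carrier Slc15a3 rose from 1.44 ± 0.349 to 6.66 ± 3.52 CPM (2.19 ± 0.41, adjusted p = 0.00036), though over 20% of its exon bases are shared with another gene. Slc17a9, which loads ATP into vesicles, rose from 39.8 ± 5.71 to 77.9 ± 4.64 CPM (0.97 ± 0.13, adjusted p = 1.87e-05). The calls of Slc15a4 (0.31), Slc29a3 (0.39), Slc36a1 (0.40) and the lysosomal amino acid sensor Slc38a9 (0.58) were each lost in at least 1 alternative, and library totals as scaling ended the first 3. All 7 mature neutrophil markers in the table rose in the same comparison, with a median log2 fold change of 2.42, and their summed level in Asxl1-MT2/T618I was 11921 to 19318 CPM against 2467 to 3204 CPM in Empty/T618I. Monocyte and macrophage markers summed to 727 to 1004 CPM against 394 to 449 CPM. F13a1 made up most of these sums, at 675 against 358 CPM on average. Of the 5 markers tested 4 were called higher and 0 lower. Cx3cr1 was not called (-0.83 ± 0.34, adjusted p = 0.061), and C1qa had no counts in Asxl1-MT2/T618I. The part of these cells was not tested.

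Of the 5 listed glucose and lactate carriers 4 were higher and 1 lower, beside 25.4% and 18.5% of all genes. Slc16a3 (chromosome 11, 120948480 to 120960868, plus strand) had 75.6, 56.1 and 72.1 CPM in Empty/T618I and 213, 193 and 168 CPM in Asxl1-MT2/T618I (1.49 ± 0.11, adjusted p = 1.92e-08). The other lactate carrier, Slc16a1, fell between the same groups, from 258, 288 and 268 CPM to 167, 176 and 198 CPM (-0.59 ± 0.093, adjusted p = 7.55e-05). Slc2a3 reached 198, 156 and 147 CPM (0.79 ± 0.12, adjusted p = 5.63e-05), its highest level of the 4 groups. Slc2a6 rose from 29.4 ± 3.67 to 61.4 ± 18.9 CPM (1.06 ± 0.21, adjusted p = 0.000598). Of the 3 members of the fatty acid family Slc27, Slc27a4 was higher and the other two were not called. Slc27a4, which takes up and activates long-chain fatty acids (chromosome 2, 29802634 to 29817522, plus strand), had 63.5, 52.8 and 57.8 CPM and 185, 154 and 133 CPM (1.44 ± 0.12, adjusted p = 5.54e-08). Slc25a24, a close relative of Slc25a23 that was named after its values were seen, rose from 65.4 ± 5.55 to 160.4 ± 15.7 CPM (1.29 ± 0.11, adjusted p = 5.4e-08), and the ADP/ATP carrier Slc25a5 fell from 734 ± 25.8 to 582 ± 25.3 CPM (-0.33 ± 0.072, adjusted p = 0.00128). The second ADP/ATP carrier, Slc25a4, fell by the same order (-0.37 ± 0.082, adjusted p = 0.00151), as did the citrate carrier Slc25a1 (-0.32 ± 0.080, adjusted p = 0.00416). Slc25a5 and Slc25a4 have processed copies in the genome, and how reads shared with them were counted is not given.

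Amino acid carriers split again, with 10 of 25 higher and 8 lower under TMM scaling and 8 higher and 10 lower under library totals. Under TMM scaling 25.4% of all genes were higher and 18.5% lower. Slc7a5 fell from 1005, 979 and 1083 CPM to 697, 681 and 688 CPM (-0.57 ± 0.087, adjusted p = 5.82e-05), still above its level without T618I. Slc3a2 (-0.35 ± 0.084, adjusted p = 0.0025) and Slc7a8 (-0.62 ± 0.15, adjusted p = 0.00255) fell with it, as did Slc38a1, a glutamine carrier that T618I alone had left uncalled (-0.49 ± 0.081, adjusted p = 0.000127). By contrast, Slc7a7 rose from 2.60, 2.29 and 1.98 CPM to 8.28, 8.56 and 7.23 CPM (1.80 ± 0.20, adjusted p = 1.9e-06). The neighbours Slc6a12, at 1.38, 2.51 and 3.10 CPM (3.09 ± 0.47, adjusted p = 5.07e-05), and Slc6a13, at 3.08, 5.64 and 4.85 CPM (2.28 ± 0.32, adjusted p = 2.25e-05), rose from their T618I minimum but stayed below every library without T618I. Slc7a11 was higher in Asxl1-MT2/T618I, at 209, 157 and 148 CPM (0.47 ± 0.14, adjusted p = 0.0134), a call that was lost without Empty/T618I library A (adjusted p = 0.0836) or Asxl1-MT2/T618I library A (0.102), in a range of 0.00163 to 0.102 over the alternatives.

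Among 27 metal and heme carriers 6 were higher and 8 lower when Asxl1-MT2 was added to T618I, beside 25.4% and 18.5% of all genes. Iron carriers parted. Slc40a1 rose from 32.2, 39.1 and 31.1 CPM to 104, 79.4 and 65.2 CPM (1.28 ± 0.15, adjusted p = 4.05e-06), while the importer Slc11a2 fell from 38.9, 40.6 and 39.97 CPM to 18.3, 22.5 and 21.1 CPM (-0.95 ± 0.12, adjusted p = 5.46e-06). Slc39a4, a zinc importer, was at 1.44, 0.954 and 1.57 CPM and 6.90, 6.37 and 4.54 CPM (2.16 ± 0.29, adjusted p = 1.49e-05). Its levels in Empty/T618I lay near the member minimum of 1 CPM. It can thus meet the minimum through Asxl1-MT2/T618I, and its rise is a description. The copper carrier Slc31a2 had 31.2, 26.9 and 24.6 CPM and 91.1, 83.96 and 67.4 CPM (1.55 ± 0.12, adjusted p = 3.12e-08). Other zinc carriers fell, so that the class did not move one way. Slc39a10, which was not called with T618I alone, was lower (-0.71 ± 0.16, adjusted p = 0.002). Slc39a8 fell from 38.1 ± 5.27 to 24.5 ± 2.09 CPM (-0.64 ± 0.14, adjusted p = 0.00191) and Slc30a4 from 9.45 ± 2.87 to 4.18 ± 0.359 CPM (-1.17 ± 0.24, adjusted p = 0.00112). When Asxl1-MT2 was added, 3 of the 7 Slc22 members were higher, Slc22a4 among them (0.65 ± 0.11, adjusted p = 0.000206), and 2 were lower. Lower levels were also measured for Slc18a2, at 46.7, 58.6 and 55.6 CPM (-0.85 ± 0.18, adjusted p = 0.00091), Slc22a3, at 30.6, 40.9 and 45.4 CPM (-0.83 ± 0.17, adjusted p = 0.00077) and Slc45a3, at 30.3, 38.8 and 40.4 CPM (-1.06 ± 0.16, adjusted p = 6.65e-05). Of the 11 mast cell and basophil markers 6 fell in this comparison, and their part in these results was not tested.

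Other classes added further rises from low levels. Slc32a1, the vesicular carrier of GABA, had 2.79, 2.39 and 1.77 CPM in Empty/T618I and 15.9, 20.8 and 22 CPM in Asxl1-MT2/T618I (3.07 ± 0.28, adjusted p = 1.78e-07), but 24.9% of its exon bases are shared with another gene. Slc15a2, a proton-coupled peptide importer, rose from 5.09, 3.34 and 4.70 CPM to 13.2, 12.6 and 10.5 CPM (1.47 ± 0.19, adjusted p = 1.13e-05). Slc26a11, a sulfate and chloride carrier, had 0.577, 0.954 and 0.835 CPM and 7.54, 5.12 and 2.89 CPM (2.70 ± 0.40, adjusted p = 4.14e-05). None of these groups overlapped, which held for 100 of the 102 members called in this comparison. Slc8b1, lower with T618I alone, rose from 76.9, 78.4 and 60.7 CPM to 112, 129 and 115 CPM (0.72 ± 0.13, adjusted p = 0.000227), close to its level of 115 ± 15.8 CPM in Empty/Empty. Of the 5 nucleoside and nucleobase carriers 2 were higher, Slc28a2 (0.60 ± 0.12, adjusted p = 0.000702) and Slc29a3, and 2 were lower. The shares of all genes were 25.4% higher and 18.5% lower. The equilibrative nucleoside carriers Slc29a1 (-0.41 ± 0.098, adjusted p = 0.00294) and Slc29a2 (-0.67 ± 0.19, adjusted p = 0.00899), the reduced folate carrier Slc19a1 (-0.53 ± 0.13, adjusted p = 0.00353) and Slc7a6, an exchanger of cationic amino acids (-0.63 ± 0.089, adjusted p = 2.45e-05), were each lower in Asxl1-MT2/T618I than in Empty/T618I. With T618I alone these 4 were not called.

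The interaction addressed whether Asxl1-MT2 acted differently with and without T618I. It was called for 49 members (24.6%), 38 positive and 11 negative, beside 19.6% of all genes, 14.1% positive and 5.51% negative. With library totals as scaling the members split into 33 positive and 25 negative. All 38 positive members were also called higher when Asxl1-MT2 was added to T618I, and of the 11 negative ones 10 were called lower and 1, Slc12a2, was not called. The sugar carriers had 5 of 14 positive, amino acid carriers 7 of 25 positive and 1 negative, and mitochondrial carriers 4 of 39 positive and 5 negative. The largest value among members of at least 5 CPM in their highest group belonged to Slc11a1 (4.74 ± 0.90, adjusted p = 0.00132), with 0.297, 0.197 and 0.0998 CPM in Asxl1-MT2/Empty. These levels lie near the floor, so the size of this interaction is uncertain. Slc37a2 (3.52 ± 0.51, adjusted p = 0.000146), Slc27a4 (1.52 ± 0.17, adjusted p = 1.74e-05) and Slc16a3 (1.02 ± 0.16, adjusted p = 0.00022) had group means of 0.976, 57.6 and 58.6 CPM in Empty/Empty and 0.826, 54.4 and 81.1 CPM in Asxl1-MT2/Empty. At such levels Slc37a2 met the member minimum mainly through Asxl1-MT2/T618I. The 7 mature neutrophil markers were all positive for the interaction as well.

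**Figure D4:**
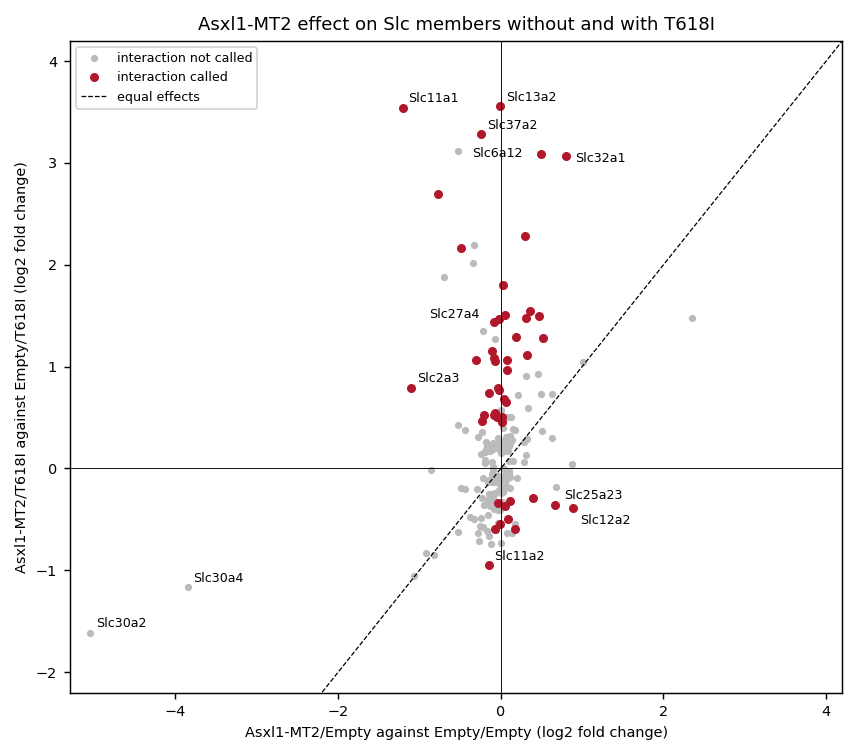
Log2 fold change of each of the 199 members with Asxl1-MT2 in cells without T618I (horizontal) and with T618I (vertical), with members whose interaction was called in red and equal effects on the dashed line. The 38 positive members lie above the line and the 11 negative members below it. Slc30a2 and Slc30a4 had no counts in Asxl1-MT2/Empty, so their horizontal values depend on the small count added by the fit.

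A few members changed in opposite directions in the 2 settings. Slc2a3 was lower with Asxl1-MT2 alone and higher with Asxl1-MT2 added to T618I (interaction 1.89 ± 0.19, adjusted p = 1.03e-05). Slc25a23 was higher with Asxl1-MT2 alone and lower with Asxl1-MT2 added to T618I, at 31.1, 37.9 and 36.5 CPM (-0.36 ± 0.11, adjusted p = 0.0154; interaction -1.02 ± 0.16, adjusted p = 0.000335). Its call in T618I cells was lost without Asxl1-MT2/T618I library A (adjusted p = 0.0796, in a range of 0.00208 to 0.0796 over the alternatives). The iron importer Slc11a2 (-0.80 ± 0.16, adjusted p = 0.00242) and the lactate carrier Slc16a1 (-0.51 ± 0.13, adjusted p = 0.0109) had negative interactions with levels near Empty/Empty in Asxl1-MT2/Empty, at 25.04 ± 0.770 and 194 ± 25.4 CPM. By comparison, Slc22a3 and Slc45a3 were lower with Asxl1-MT2 in both settings, at log2 fold changes of -0.92 and -0.83 for Slc22a3 and of -1.07 and -1.06 for Slc45a3, and their interactions were not called (0.09 ± 0.26, adjusted p = 0.846, and 0.01 ± 0.24, adjusted p = 0.993). Slc2a1 (0.55 ± 0.17, adjusted p = 0.0303), Slc40a1 (0.76 ± 0.25, adjusted p = 0.0395) and Slc7a11 (0.70 ± 0.21, adjusted p = 0.0292) had weak positive interactions. These missed the threshold in 9, 9 and 6 of 18 alternatives, most of them with a single library left out, and their adjusted p ran from 0.00157 to 0.089, from 0.00815 to 0.137 and from 0.00349 to 0.0954.

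**Figure D5:**
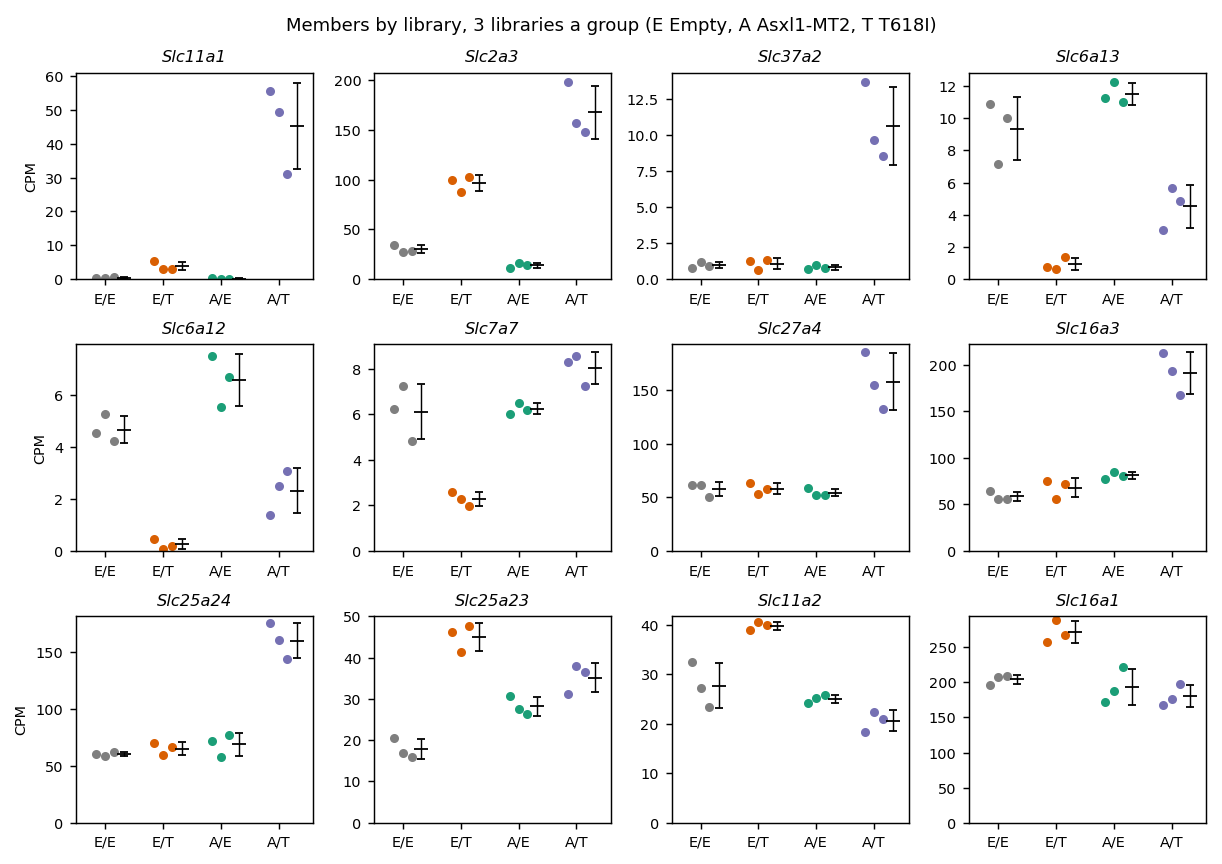
Levels (CPM, linear axis from 0) in each of the 12 libraries of 12 members with a called interaction, with the mean and SD of 3 libraries as a bar beside the points of each group (E/E Empty/Empty, E/T Empty/T618I, A/E Asxl1-MT2/Empty, A/T Asxl1-MT2/T618I). Slc11a1, Slc37a2, Slc27a4, Slc16a3 and Slc25a24 are highest in the 3 Asxl1-MT2/T618I libraries, and Slc11a2 and Slc16a1 are highest in Empty/T618I.

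Comparing Asxl1-MT2/T618I with Asxl1-MT2/Empty, 73 members were higher and 41 lower (57.3%), beside 49.8% of all genes, 26.9% higher and 22.8% lower. With library totals the split was 67 and 56. This comparison shares its first group with the comparison above, so the values are given side by side and not as a repeat. Metal and heme carriers had 13 of 27 higher and 5 lower, and carriers of inorganic ions 11 of 26 higher and 3 lower. Slc11a1 had a log2 fold change of 7.75 ± 0.37 (adjusted p = 2.48e-11), Slc2a3 of 3.57 ± 0.14 (adjusted p = 3.99e-12) and Slc40a1 of 2.63 ± 0.17 (adjusted p = 8.71e-10). That of Slc11a1 starts from a level near the floor in Asxl1-MT2/Empty, so its size is uncertain. Slc30a4 went from no counts in Asxl1-MT2/Empty to 120 with both inserts, which makes it at least 39.2-fold higher against a floor of 3 counts over the group. Slc37a3, a relative of Slc37a2 that is needed for the release of bisphosphonates from lysosomes, went from 3 counts in Asxl1-MT2/Empty to 285 with both inserts, a ratio of 93.2 with an exact 95% interval of 31.6 to 454.5 for counting error. Among members with at least 5 CPM in the higher group, the largest falls were those of Slc43a1 (-1.50 ± 0.15, adjusted p = 3.09e-07), Slc6a12 (-1.49 ± 0.27, adjusted p = 0.000224) and Slc28a2 (-1.45 ± 0.11, adjusted p = 1.25e-08). All 3 were also lower with T618I alone, and Slc13a2, under that level, fell further (-1.99 ± 0.42, adjusted p = 0.000897). Slc28a2 was the most abundant of these, with 136, 130.1 and 131 CPM in Asxl1-MT2/Empty and 37.4, 48.6 and 58.9 CPM in Asxl1-MT2/T618I, where library A was the lowest.

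Carriers named outside the Slc series were counted from a list of 46 genes that included the lactate carrier chaperones Bsg and Emb. The table held 42 and 37 were tested. With T618I alone 9 rose and 8 fell, beside 17.6% and 15.9% of all genes. Slco2b1, an uptake carrier of steroid conjugates, rose from 0.103 ± 0.179 to 12.1 ± 4.46 CPM (6.73 ± 0.58, adjusted p = 8.59e-08), and Mfsd2a, a carrier of lysophospholipids, from 1.58 ± 0.302 to 15.1 ± 1.39 CPM (3.25 ± 0.23, adjusted p = 7.79e-09). When Asxl1-MT2 was added to T618I, 15 rose and 6 fell, beside 25.4% and 18.5% of all genes. The interaction was positive for 9 and negative for 1, beside 14.1% and 5.51%. Bsg, the chaperone of both lactate carriers, was at 301 ± 15.9 CPM in Empty/T618I and 297 ± 10.8 CPM in Asxl1-MT2/T618I (-0.02 ± 0.069, adjusted p = 0.845).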

How the data were processed

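RNA of 12 HoxB8 populations was sequenced, 3 libraries for each of 4 groups. The deposited table holds raw read counts per gene symbol. Per the submitters' processing notes, Trimmomatic, STAR, DESeq2 and mm10 were used, without versions or order. The counting tool, annotation and strand setting are not given in the sources used here. Groups were read from the titles through the column names.

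Symbols were kept by edgeR's filterByExpr (11578, holding 99.937% of the counts), scaled by TMM and fitted over all 12 libraries with a mean per group by edgeR's quasi-likelihood test (edgeR 4.0.16, R 4.3.3). The interaction is the difference between the effects of Asxl1-MT2 with and without T618I. Adjusted p-values are Benjamini-Hochberg values over all genes tested, called under 0.05. All 199 members were tested. Levels are TMM-scaled CPM, the member rule used unscaled ones, and SE is the fold change divided by the square root of F. The fit was tested on simulated data. Alternatives were DESeq2 1.42.0 and its size factors, no filter, the 2 groups alone, the column letter as a block, each library left out, the letter C libraries left out, other member minimums and, added after seeing the data, library totals. Named genes were, per comparison, up to 12 largest rises and 12 largest falls among called members with at least 5 CPM and groups that did not overlap, the 2 members with most counts per class, and listed carriers. Lack of overlap was thus fixed in advance for members named by fold change, except through the interaction, where it was not required. The members and lists were chosen with earlier results of these data known. Coordinates come from GENCODE M21 (GRCm38) and promoters from RefSeq (GRCm38.p6).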

Additional observations from a re-analysis of the deposited data

Results flagged for a closer look

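Among the named members, 23 had an effect of Asxl1-MT2 that differed between cells with and without T618I by the interaction test of edgeR. The values are differences of log2 fold changes, with T618I minus without. Of these, 12 were positive. These were Slc11a1 (4.74), Slc37a2 (3.52), Slc26a11 (3.47), Slc39a4 (2.65), Slc6a12 (2.60), Slc32a1 (2.26), Slc6a13 (1.98), Slc2a3 (1.89), Slc7a7 (1.77), Slc27a4 (1.52), Slc15a2 (1.48) and Slc2a9 (1.45). In Empty/T618I, Slc37a2, Slc26a11 and Slc39a4 lay near or under the member minimum of 1 CPM. They can meet it through Asxl1-MT2/T618I, so their values are descriptions. Slc2a9 had 5.67, 4.39 and 4.28 CPM in Empty/T618I and 14.7, 13.4 and 12.8 CPM in Asxl1-MT2/T618I, and its groups without T618I had 10.4 and 10.8 CPM on average.

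The 11 negative ones were Slc12a2 (-1.27), Slc25a23 (-1.02), Slc11a2 (-0.80), Slc43a1 (-0.76), Slc35g1 (-0.68), Slc25a32 (-0.59), Slc24a3 (-0.53), Slc16a1 (-0.51), Slc25a1 (-0.42), Slc25a4 (-0.42) and Slc25a5 (-0.30). Among them, Slc12a2 was not called within either setting. Its libraries had 2.11, 1.89 and 2.27 CPM in Empty/Empty, 6.92, 7.64 and 6.89 CPM in Empty/T618I, 3.26, 4.04 and 4.29 CPM in Asxl1-MT2/Empty and 4.35, 6.47 and 5.58 CPM in Asxl1-MT2/T618I. The adjusted p of the interaction crossed the threshold in at least 1 alternative for Slc26a11 (range 0.000593 to 0.0551), Slc43a1 (0.0075 to 0.0695), Slc24a3 (0.00648 to 0.0611), Slc25a32 (0.0184 to 0.233) and Slc25a5 (0.00546 to 0.122). The mature neutrophil markers were also positive for the interaction, all 7 of 7, and their part in these results was not tested.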

How the results depend on the processing

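Values of single members under the alternatives were compared for named members and for calls of the main fit. Of 11166 such values, 10551 kept their side of the threshold, 436 lost the threshold and 179 newly passed it. Members neither named nor called were left out, so values of theirs that newly passed are not in the 179. None changed sign where the main fit or the alternative called it. Sign changes of values called in neither were not counted. For Asxl1-MT2 alone, the members called higher were 1 without the letter C libraries and 0 to 4 with a library left out (main value 2). Those called lower were 6 with DESeq2, 6 without the filter, 5 with the 2 groups alone, 10 without the letter C libraries and 1 to 6 with a library left out (main value 3). With library totals, 65 members were lower when Asxl1-MT2 was added to T618I (main value 42) and 25 had a negative interaction (main value 11), which ran from 8 to 17 with a library left out. Leaving out a library gave 42 to 51 higher and 29 to 45 lower members for T618I alone, 52 to 63 and 30 to 47 for Asxl1-MT2 added to T618I, and 67 to 74 and 34 to 42 for T618I added to Asxl1-MT2. Called members that held in every alternative were 67 of 91, 1 of 5, 77 of 102, 94 of 114 and 33 of 49 in the order T618I alone, Asxl1-MT2 alone, Asxl1-MT2 added to T618I, T618I added to Asxl1-MT2 and interaction. The labels do not say what the column letters stand for. Deviations of same-letter libraries correlated at -0.061 to 0.22 (median 0.044), those of different letters at -0.226 to 0.135 (median -0.031). Outside Asxl1-MT2/T618I, letter A libraries correlated at 0.147 to 0.168, letter C at 0.181 to 0.22 and letter B at -0.023 to 0.045. For 1 of 12 libraries the best match in every other group had its own letter. Whether libraries of a letter share a culture or batch was not tested. With the letter as a replicate block, members higher and lower were 50 and 50, 3 and 4, 65 and 43, 73 and 45, and 43 and 15 in the same order. The cause of these shifts was not tested. Depth limits members near the minimum, of which 39 had a mean under 5 CPM.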

Other observations

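Carriers without an Slc symbol held further differences. Sfxn5, a sideroflexin of mitochondria, was at 1.59 ± 0.536 CPM in Empty/Empty, 5.90 ± 0.967 CPM in Empty/T618I, 1.52 ± 0.329 CPM in Asxl1-MT2/Empty and 41.7 ± 15.9 CPM in Asxl1-MT2/T618I. Its log2 fold change was 1.89 ± 0.36 with T618I alone (adjusted p = 0.000524) and 2.82 ± 0.25 with Asxl1-MT2 added to T618I (adjusted p = 1.15e-07). Mfsd2b, which exports sphingosine-1-phosphate from erythroid cells and platelets, rose with T618I alone (2.47 ± 0.37, adjusted p = 5.22e-05), and Mfsd7a fell (-2.81 ± 0.29, adjusted p = 6.71e-07). With Asxl1-MT2 alone 2 of the 37 tested were called, both lower, the lactate carrier chaperone Emb (-0.37 ± 0.092, adjusted p = 0.0485) and Spns2, another exporter of sphingosine-1-phosphate (-0.67 ± 0.12, adjusted p = 0.00829). Over all genes 1.86% were called in this comparison.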
